A study of Mus musculus with 6 samples.

Results

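The mitochondrial carrier genes examined here are the members of the SLC25 family that carry a numbered Slc25a symbol in the deposited table, without the adenine nucleotide translocases Slc25a4 and Slc25a5. To them were added Ucp2, the mitochondrial pyruvate carrier subunits Mpc1 and Mpc2, and the carrier homologues Mtch1 and Mtch2. The choice went by gene name, with earlier results of these data known, and it gave 48 of the 28476 genes in the table. Their RNA was compared between livers of C57BL/6 mice of 2 genotypes, labelled Nedd4 HepKO and Flox, with 3 libraries each. Every mouse was fasted overnight and given 300 mg/kg acetaminophen (APAP) into the peritoneum 24 h before the liver was taken, so the Flox livers are injured controls and not untreated ones. Age, sex and the Cre line behind HepKO are not given in the labels. Nor do they tie a library to a single mouse, and the p-values here reflect only the spread among the 6 libraries, which may be technical. By its title the series concerns the ubiquitin ligase NEDD4-1, liver injury from acetaminophen, and VDAC1, a channel of the outer mitochondrial membrane.

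SLC25 proteins span the inner mitochondrial membrane, which is otherwise closed to polar metabolites, and most exchange a matrix metabolite for a cytosolic one. In liver they link the cytosol to the urea cycle, to the malate-aspartate shuttle, to gluconeogenesis, to lipid synthesis and to fatty acid oxidation. Pyruvate enters through a separate complex of MPC1 and MPC2, and MTCH1, MTCH2 and SLC25A46 are carrier-like proteins of the outer membrane. Acetaminophen is background to this group because its reactive metabolite binds mitochondrial proteins and depletes mitochondrial glutathione.

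Values are FPKM, fragments scaled by transcript length and library size, which allow levels to be compared between genes per length. Nedd4, the targeted ubiquitin ligase gene, had 0.618, 0.666 and 0.565 FPKM in HepKO livers, against 2.18, 2.59 and 2.23 FPKM in Flox livers. It fell (log2 fold change -1.04, SE 0.10, limma adjusted p = 0.0015), with p = 0.10 by exact permutation (two-sided), the smallest value that 3 against 3 libraries allow. The libraries summed to 456176 to 496303 FPKM. HepKO replicate 1 stood apart with 24.6% of its FPKM in mitochondrial genome transcripts, while the remaining HepKO libraries had 17.2% and 18.3%, and Flox libraries 16.7% to 18.1%. The hepatocyte markers Alb, Apoa1, Ttr, Serpina1c, Cyp2e1, Cps1 and Hnf4a were present in all libraries, with sums of 38772 to 43353 FPKM in HepKO and 35580 to 42589 FPKM in Flox livers. These sums are mostly Alb, which averaged 26922 FPKM in HepKO and 25956 FPKM in Flox livers, so they say little of the other markers. Of these 7, Cps1 (2.41-fold) and Hnf4a (1.34-fold) fell and 5 did not pass. Among those 5, Ttr and Cyp2e1 were lower and Apoa1 was higher in HepKO livers without overlap of the groups. What part this has in the carrier values was not tested. In whole liver, fewer cells of a type and less RNA per cell cannot be told apart.

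Of the 48 genes, 39 reached a mean of 0.5 FPKM over the 6 libraries and were tested with limma on log2(FPKM + 1). Of these, 3 were higher and 10 lower in HepKO livers at a Benjamini-Hochberg adjusted p below 0.05 over all 12712 tested genes, and 26 did not pass. The 10 lower carriers became 5 without HepKO replicate 1 or Flox replicate 3, and 4 without HepKO replicate 2 or Flox replicate 2. The 3 higher became 1 without Flox replicate 2. Calls over all tested genes, 2583 with all 6 libraries, also fell in these fits. They were 1661 without HepKO replicate 1 and 1480 without Flox replicate 3. Without HepKO replicate 2 they were 1306, and without Flox replicate 2 they were 1322. With all 6 libraries, the called share was 33.3% of the tested carriers, beside 20.3% of all tested genes. By direction, 7.69% of the carriers were higher and 25.6% lower, beside 9.33% and 11.0% of all tested genes. The median log2 fold change was -0.26 over the tested carriers and -0.06 over all tested genes. Median-ratio rescaling, which turned the calls over all genes to 1501 higher and 1034 lower, against 1186 higher and 1397 lower as deposited, left the carriers at 3 higher and 9 lower. As deposited, 29 of the 39 carriers had a value below 0, beside 56.6% of all tested genes. The carrier median ran from -0.33 to -0.18 when 1 library was left out and was -0.15 after median-ratio rescaling, which moved the median of all genes to 0.02. The groups did not overlap for 15 carriers lower and 3 higher in HepKO livers, and overlapped for 21. Among all tested genes 42.4% did not overlap, 25.2% lower and 17.2% higher. The summed FPKM of the 48 genes was 563, 611 and 624 in HepKO livers, against 821, 687 and 665 in Flox livers. As deposited, every HepKO sum lay below every Flox sum, and HepKO replicate 1 had the lowest. The sums were 0.113%, 0.127% and 0.136% of the HepKO libraries, against 0.180%, 0.149% and 0.144% of the Flox libraries. Median-ratio factors were 0.913, 0.968 and 1.02 for the HepKO libraries, against 1.03, 1.03 and 1.07 for the Flox libraries. The separation of the sums, and which library is lowest, therefore depend on the scaling.

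**Figure D1:**
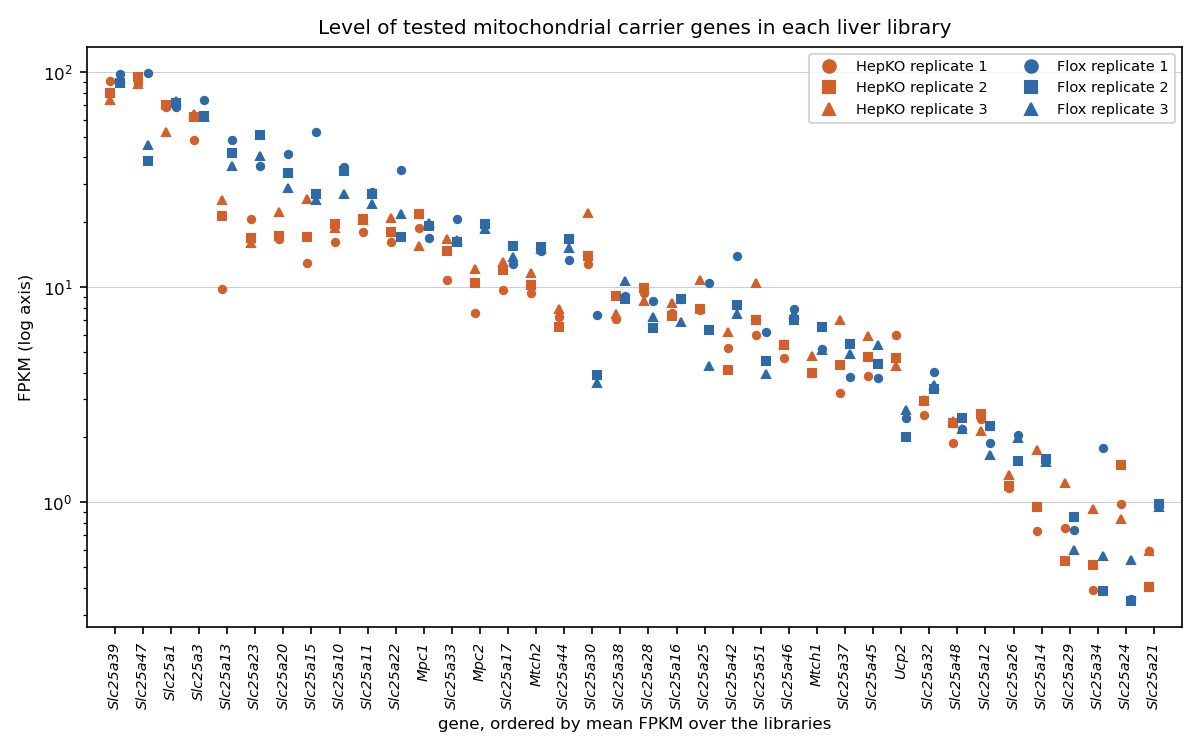
FPKM of 38 tested carrier genes on a log axis, ordered by mean level, with 1 point for each of the 3 HepKO and 3 Flox libraries. Levels run from Slc25a39, at 73.7 to 98.1 FPKM, to Slc25a21, at 0.405 to 0.978 FPKM, and the HepKO points of Slc25a13, Slc25a23 and Slc25a20 lie below their Flox points.

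The 10 highest carriers held 65.2% to 69.4% of the summed carrier FPKM in HepKO livers and 68.6% to 70.7% in Flox livers. The highest was Slc25a39, a carrier required for mitochondrial glutathione import. It had 91.1, 79.5 and 73.7 FPKM in HepKO livers, against 98.1, 88.7 and 93.4 FPKM in Flox livers. The groups overlapped and the difference did not pass (log2 fold change -0.20, 95% interval -0.47 to 0.07, limma adjusted p = 0.25). Its paralogue Slc25a40 stood far lower, at 0.520, 0.419 and 0.496 FPKM in HepKO livers and 0.360, 0.510 and 0.563 FPKM in Flox livers, and was not tested. Slc25a47, a carrier found mainly in liver, had 88.8, 94.2 and 88.2 FPKM in HepKO livers, against 98.3, 38.5 and 45.5 FPKM in Flox livers. Flox replicate 1 alone lay at the HepKO level, and the difference did not pass with it (log2 fold change 0.69, limma adjusted p = 0.18) but did without it (1.09, adjusted p = 0.0051). Slc25a3, which brings phosphate into the matrix for ATP synthesis, had 48.0, 61.8 and 63.8 FPKM in HepKO livers, against 74.3, 62.2 and 61.8 FPKM in Flox livers. HepKO replicate 1 was the low library there, and the gene did not pass (log2 fold change -0.19, interval -0.54 to 0.15, adjusted p = 0.38).

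The uncoupling protein subfamily, with 3 tested members, held 2 of the 3 rises, beside 9.33% higher among all tested genes. Slc25a30 (ENSMUSG00000022003, chromosome 14, 75760117 to 75787037), also known as kidney mitochondrial carrier protein 1, had 12.8, 13.9 and 22.0 FPKM in HepKO livers, against 7.43, 3.88 and 3.57 FPKM in Flox livers. It rose 3.27-fold (log2 fold change 1.55, SE 0.29, adjusted p = 0.014), with HepKO replicate 3 the highest and Flox replicate 1 the highest of its group, and it missed the threshold when Flox replicate 2 was left out (adjusted p = 0.053). Ucp2 (ENSMUSG00000033685, chromosome 7, 100493337 to 100502020), an uncoupling protein that is also expressed in macrophages, had 5.97, 4.69 and 4.30 FPKM in HepKO livers, against 2.45, 2.00 and 2.66 FPKM in Flox livers. It rose 2.10-fold (log2 fold change 0.82, SE 0.14, adjusted p = 0.010), the groups did not overlap, and the call held without any 1 library (adjusted p = 0.016 to 0.040). Markers of myeloid cells rose in part. Of 7 monocyte and macrophage markers, 4 rose and 3 did not pass, and their summed level was 134, 133 and 112 FPKM in HepKO livers, against 65.6, 68.6 and 86.1 FPKM in Flox livers. Of 7 neutrophil markers, 6 rose and Ly6g was not tested, with sums of 126, 151 and 138 FPKM in HepKO livers and 19.9, 10.5 and 18.9 FPKM in Flox livers. Of 5 Kupffer cell markers, Marco rose and 4 did not pass, with sums of 65.3 to 86.8 FPKM in HepKO and 35.5 to 69.3 FPKM in Flox livers. Ly6g was listed at 0 in all Flox libraries and no other of these markers was at 0 in a whole group, and their part in the level of Ucp2 was not tested. Slc25a14, another member of this subfamily, did not pass (adjusted p = 0.29). HepKO replicate 3 lay at the Flox level there, with 1.75 FPKM, against 1.56, 1.59 and 1.54 FPKM in Flox livers, and without it the gene was called lower (adjusted p = 0.040). Slc25a27 stood at 0.317 to 0.495 FPKM in HepKO and 0.405 to 0.468 FPKM in Flox livers and was not tested.

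**Figure D2:**
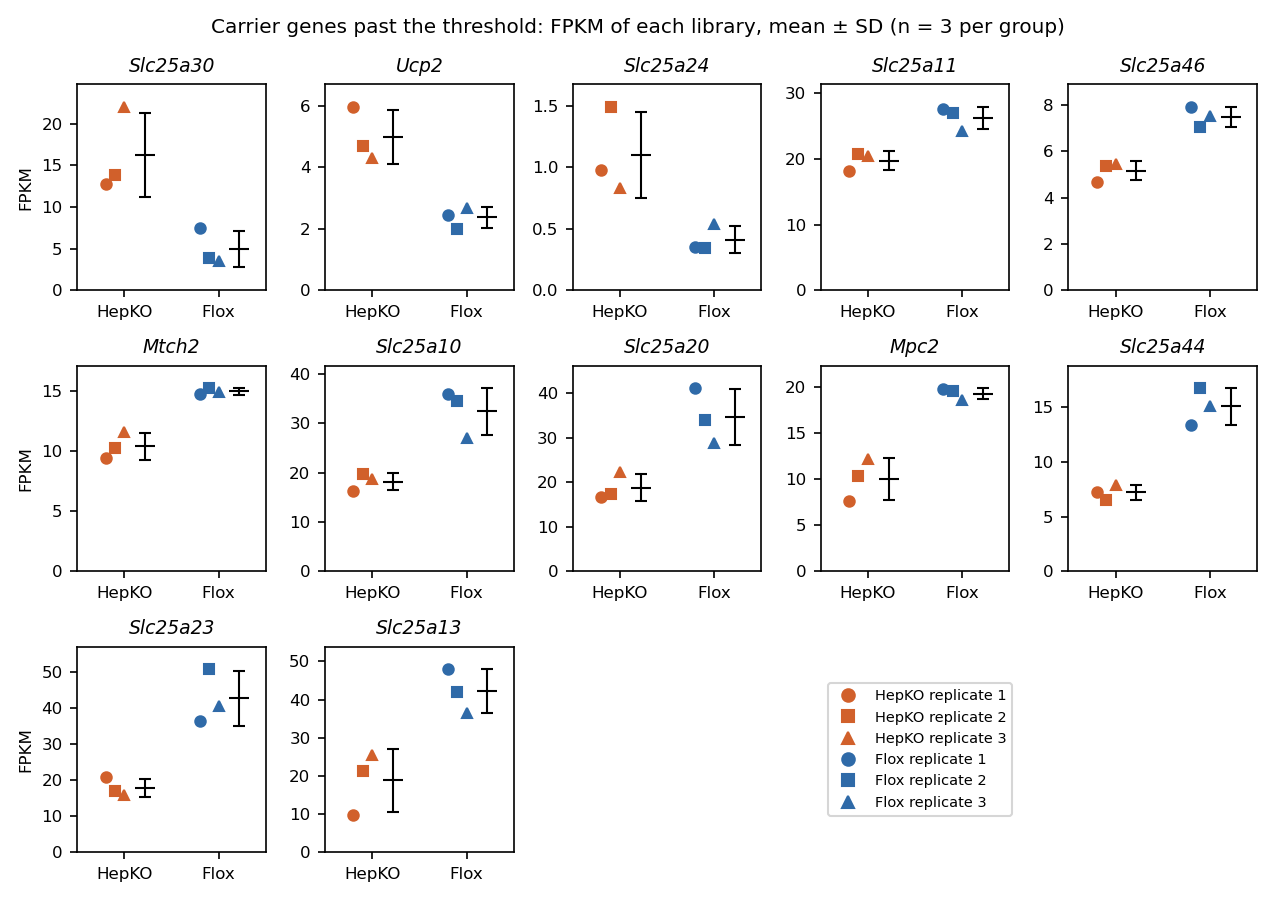
FPKM of each library for 12 of the 13 carrier genes past the threshold, 1 panel a gene with its own axis from 0, HepKO left of Flox, with the mean and SD (n = 3) as a black bar beside the points. Slc25a30, Ucp2 and Slc25a24 are higher in HepKO livers and the 9 others drawn are lower, and in each panel the 3 HepKO points and the 3 Flox points do not overlap.

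Carriers that exchange ATP-Mg for phosphate, which set the size of the adenine nucleotide pool in the matrix and respond to calcium, split by paralogue. Slc25a23 (ENSMUSG00000046329, chromosome 17, 57043711 to 57059863) had 20.8, 17.0 and 15.99 FPKM in HepKO livers, against 36.4, 50.9 and 40.6 FPKM in Flox livers. It fell 2.38-fold (log2 fold change -1.20, SE 0.16, adjusted p = 0.0040), a call that held without any 1 library (adjusted p = 0.0074 to 0.022). An antisense gene over its exons, Gm17168, averaged 0.079 FPKM in HepKO and 1.27 FPKM in Flox livers, and without stated strand in the quantification its reads cannot be told apart from those of Slc25a23. Slc25a24 (ENSMUSG00000040322, chromosome 3, 109123149 to 109168457) had 0.975, 1.49 and 0.830 FPKM in HepKO livers, against 0.355, 0.348 and 0.538 FPKM in Flox livers. It rose 2.66-fold at this low level (log2 fold change 0.56, SE 0.15, adjusted p = 0.039). The call of Slc25a24 was lost without HepKO replicate 1 (adjusted p = 0.078) or 2 (0.092) and without Flox replicate 1 (0.092), 2 (0.114) or 3 (0.069). Slc25a25, the third paralogue, had 7.84, 7.86 and 10.7 FPKM in HepKO livers, against 10.4, 6.28 and 4.28 FPKM in Flox livers. Its groups overlapped through Flox replicate 1 and it did not pass (adjusted p = 0.41). The testis isoform of the adenine nucleotide translocase, Slc25a31, did not exceed 0.028 FPKM and was not tested.

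Among carriers of amino acids, the 2 aspartate-glutamate exchangers of the malate-aspartate shuttle stood apart from each other. Slc25a13 (ENSMUSG00000015112, chromosome 6, 6041218 to 6217173), which encodes citrin, the liver form that also supplies aspartate to the urea cycle, had 9.74, 21.4 and 25.5 FPKM in HepKO livers, against 48.1, 42.0 and 36.6 FPKM in Flox livers. It fell 2.24-fold (log2 fold change -1.21, SE 0.33, adjusted p = 0.044), and HepKO replicate 1 was the lowest library. The log2 fold change was -0.82 without HepKO replicate 1 (adjusted p = 0.026), and the call was lost without HepKO replicate 2 (0.080) or Flox replicate 1 (0.108), 2 (0.114) or 3 (0.088). Slc25a12, which encodes aralar, the form of muscle and brain, had 2.43, 2.58 and 2.14 FPKM in HepKO livers, against 1.89, 2.25 and 1.66 FPKM in Flox livers, and did not pass (adjusted p = 0.25). The ratio of Slc25a12 to Slc25a13 within a library was 0.249, 0.120 and 0.084 in HepKO livers, against 0.039, 0.054 and 0.045 in Flox livers, so citrin RNA exceeded aralar RNA in every library and by less in each HepKO liver.

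Slc25a44 (ENSMUSG00000050144, chromosome 3, 88410498 to 88425139), a carrier of branched-chain amino acids, had 7.25, 6.52 and 7.92 FPKM in HepKO livers, against 13.3, 16.7 and 15.1 FPKM in Flox livers. Its fall of 2.08-fold had the smallest adjusted p of the carriers (log2 fold change -0.96, SE 0.12, adjusted p = 0.0035, and 0.0064 to 0.019 without 1 library). Slc25a15, the ornithine carrier of the urea cycle, had 12.9, 17.0 and 25.7 FPKM in HepKO livers, against 52.4, 27.0 and 25.3 FPKM in Flox livers. The groups overlapped, Flox replicate 1 stood far above the other Flox livers, and the gene did not pass (log2 fold change -0.85, interval -1.66 to -0.05, adjusted p = 0.12). Its paralogue Slc25a2 was at most 0.259 FPKM in any library. Slc25a22, a glutamate carrier, also had its highest value in Flox replicate 1 (34.8 FPKM), with 16.2 to 20.9 FPKM in HepKO livers and 17.0 and 21.9 FPKM in the other Flox livers (adjusted p = 0.36), and its paralogue Slc25a18 was at most 0.364 FPKM. Slc25a38, a glycine carrier used in heme synthesis, had 7.07 to 9.05 FPKM in HepKO and 8.76 to 10.6 FPKM in Flox livers (adjusted p = 0.22). Slc25a29, a carrier of basic amino acids, stayed at 0.529 to 1.23 FPKM in HepKO and 0.599 to 0.849 FPKM in Flox livers (adjusted p = 0.78).

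Pyruvate and carboxylate carriers were lower in part. Mpc2 (ENSMUSG00000026568, chromosome 1, 165460637 to 165481214), a subunit of the pyruvate carrier, had 7.60, 10.4 and 12.1 FPKM in HepKO livers, against 19.8, 19.6 and 18.6 FPKM in Flox livers. It fell 1.92-fold (log2 fold change -0.90, SE 0.16, adjusted p = 0.012), and passed without any 1 library (adjusted p = 0.011 to 0.048). Mpc1, its obligate partner, had 18.9, 21.8 and 15.4 FPKM in HepKO livers, against 16.8, 19.1 and 19.8 FPKM in Flox livers, with a log2 fold change whose 95% interval was -0.35 to 0.34. The ratio of Mpc2 to Mpc1 was 0.403, 0.477 and 0.787 in HepKO livers, against 1.18, 1.02 and 0.938 in Flox livers, and did not overlap between the groups. Mpc1-ps, annotated as a pseudogene and named as a copy of Mpc1, was listed at 145, 172 and 193 FPKM in HepKO livers, against 194, 206 and 219 FPKM in Flox livers, far above Mpc1 itself. How reads were divided between Mpc1 and this copy is not stated, so the level of Mpc1 and its ratio to Mpc2 are uncertain. Slc25a10 (ENSMUSG00000025792, chromosome 11, 120491840 to 120499187), which exports malate in exchange for phosphate, had 16.2, 19.6 and 18.8 FPKM in HepKO livers, against 35.9, 34.4 and 27.0 FPKM in Flox livers. It fell 1.79-fold (log2 fold change -0.80, SE 0.14, adjusted p = 0.011) and passed without any 1 library (adjusted p = 0.014 to 0.047).

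Slc25a11 (ENSMUSG00000014606, chromosome 11, 70644196 to 70647058), the oxoglutarate-malate exchanger of the malate-aspartate shuttle, fell 1.33-fold, with 18.1, 20.7 and 20.4 FPKM in HepKO livers, against 27.5, 26.9 and 24.3 FPKM in Flox livers. Its adjusted p of 0.041 became 0.064 to 0.120 when any 1 library was left out and 0.092 after median-ratio rescaling, and it overlaps the oppositely transcribed gene Rnf167, at 5.09 FPKM in HepKO and 5.51 FPKM in Flox livers. Slc25a21, the oxoadipate carrier of lysine breakdown, lay just outside the threshold (adjusted p = 0.0502, and 0.045 in limma without a variance trend), with 0.593, 0.405 and 0.592 FPKM in HepKO livers, against 0.962, 0.978 and 0.948 FPKM in Flox livers. Slc25a1, the citrate exporter that supplies carbon for lipid synthesis, had 68.4, 70.4 and 52.7 FPKM in HepKO livers, against 68.6, 71.5 and 73.0 FPKM in Flox livers. HepKO replicate 3 was its low library and it did not pass (log2 fold change -0.16, interval -0.48 to 0.15, adjusted p = 0.42).

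Slc25a20 (ENSMUSG00000032602, chromosome 9, 108662088 to 108684641) encodes the carnitine-acylcarnitine translocase, the step that carries long-chain acyl groups into the matrix for oxidation. It had 16.8, 17.3 and 22.3 FPKM in HepKO livers, against 41.3, 33.9 and 28.9 FPKM in Flox livers, and fell 1.85-fold (log2 fold change -0.85, SE 0.17, adjusted p = 0.017). The call was lost without HepKO replicate 1 (adjusted p = 0.052) or 2 (0.064) or Flox replicate 2 (0.057). Among 13 tested genes of the carnitine shuttle and fatty acid oxidation, 8 fell and 5 did not pass, or 61.5% beside 11.0% of all tested genes, with a median log2 fold change of -0.60. The 8 became 2 without HepKO replicate 2, 3 without Flox replicate 2, and 4 without Flox replicate 1 or 3 or without a filter on low values. Etfb and Etfa, the electron transfer flavoprotein subunits that take electrons from acyl-CoA dehydrogenases, fell 1.86-fold and 1.82-fold, to 90.7 and 62.9 FPKM in HepKO livers. Hadhb, a trifunctional protein subunit, fell 1.60-fold and Acadvl, the very long-chain acyl-CoA dehydrogenase, 1.52-fold. The calls of Etfa and Etfb held without any 1 library, whereas Acadvl kept its call in 2 and Hadhb in 1 of the 6 such fits.

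**Figure D3:**
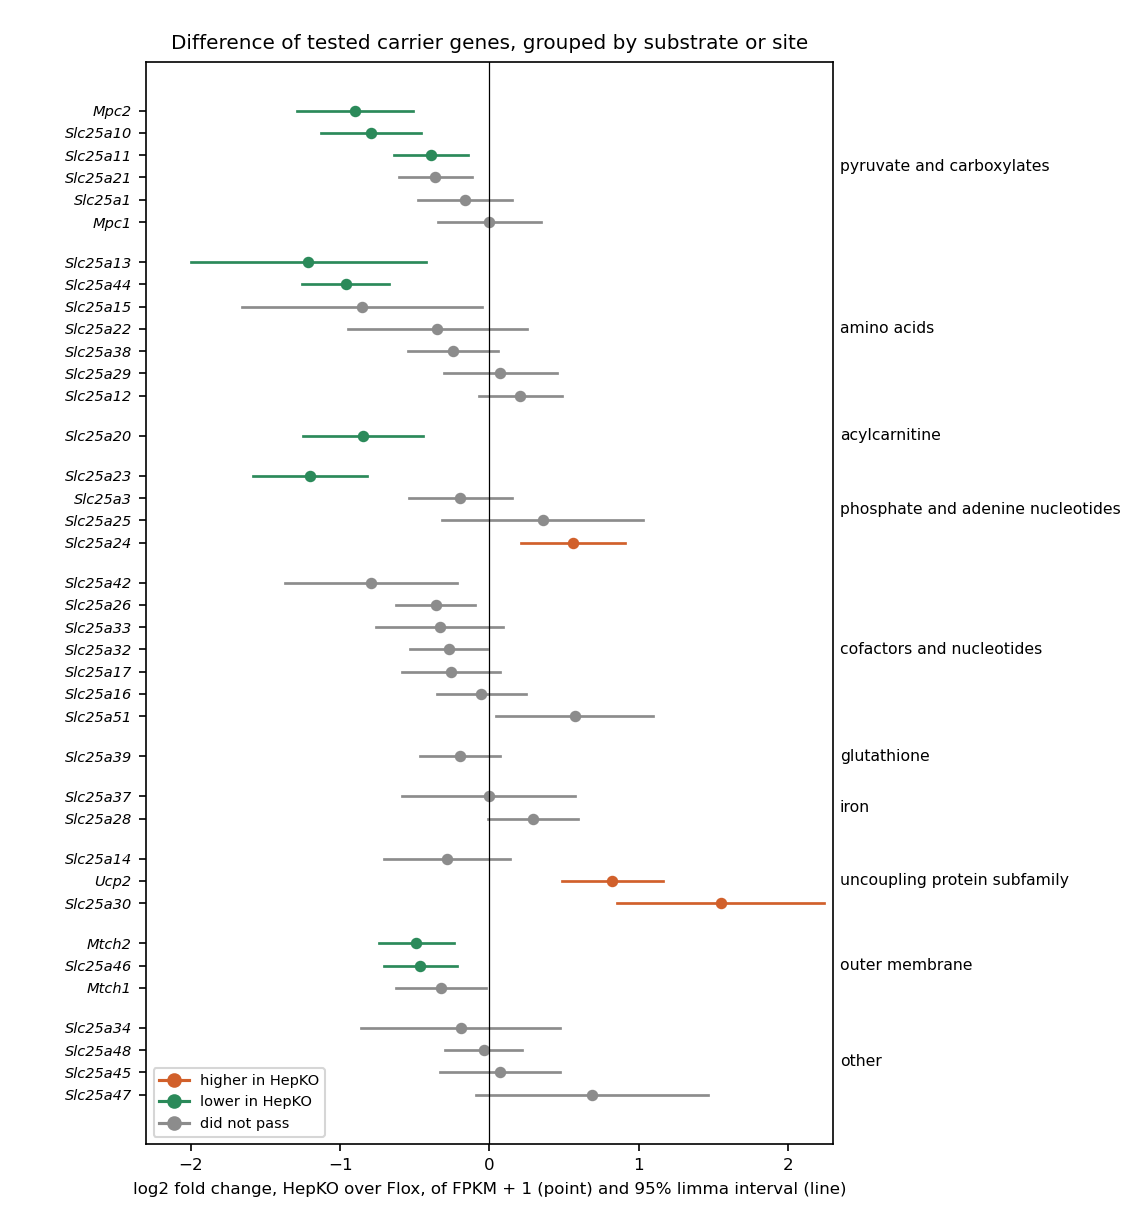
Log2 fold change of HepKO over Flox on the FPKM + 1 scale (points) with 95% limma intervals (lines) for 38 tested carrier genes, grouped by substrate or site. Genes past the threshold are coloured, 9 lower and 3 higher. The uncoupling protein subfamily holds both of the largest positive values, Slc25a30 at 1.55 and Ucp2 at 0.82 among called genes.

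Of 8 tested carriers of cofactors and nucleotides, 1 fell and 7 did not pass, beside 11.0% lower among all tested genes. Of those that did not pass, Slc25a42, a coenzyme A carrier, had 5.21, 4.09 and 6.14 FPKM in HepKO livers, against 14.0, 8.24 and 7.46 FPKM in Flox livers. The groups did not overlap, Flox replicate 1 was the highest, and the gene did not pass (log2 fold change -0.79, adjusted p = 0.061). Slc25a16, also linked to coenzyme A, had 7.34 to 8.44 FPKM in HepKO and 6.84 to 8.81 FPKM in Flox livers (adjusted p = 0.80). The ratio of Slc25a16 to Slc25a42 was 1.45, 1.79 and 1.37 in HepKO livers, against 0.627, 1.07 and 0.917 in Flox livers. Slc25a51, the mitochondrial NAD carrier, had 6.01, 7.04 and 10.4 FPKM in HepKO livers, against 6.20, 4.51 and 3.93 FPKM in Flox livers, and did not pass (adjusted p = 0.12). Slc25a26, the S-adenosylmethionine carrier, averaged 1.23 ± 0.09 FPKM in HepKO and 1.87 ± 0.27 FPKM in Flox livers (SD, n = 3 each; limma adjusted p = 0.065), and shares exonic positions with the oppositely transcribed Lrig1. Slc25a32 (folate and FAD), Slc25a17 (a peroxisomal carrier) and Slc25a33 (pyrimidine nucleotides) had log2 fold changes of -0.27, -0.26 and -0.33 and adjusted p of 0.13, 0.23 and 0.23. Slc25a36, the paralogue of Slc25a33, was at 0.410 to 0.728 FPKM in HepKO and 0.251 to 0.436 FPKM in Flox livers and was not tested.

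The mitoferrins, which import iron for heme and iron-sulfur cluster synthesis, did not pass. Slc25a28 had 9.41, 9.89 and 8.57 FPKM in HepKO livers, against 8.63, 6.45 and 7.27 FPKM in Flox livers (log2 fold change 0.29, interval -0.01 to 0.59, adjusted p = 0.15). Slc25a37, the erythroid form, had 3.20, 4.34 and 7.01 FPKM in HepKO livers, against 3.83, 5.41 and 4.88 FPKM in Flox livers, with a log2 fold change of -0.01 and an interval of -0.59 to 0.58. Its sign depended on the scaling, with 0.09 after median-ratio rescaling. Of 9 erythroid markers sought, 8 were in the table, and the globin genes Hba-a1, Hba-a2, Hbb-bs and Hbb-bt rose. Alas2 did not pass, and of the 3 markers under the filter, Slc4a1 and Epb42 were below 0.05 FPKM in every library. The summed erythroid level was 551 to 974 FPKM in HepKO and 132 to 234 FPKM in Flox livers. The part of erythroid cells in the level of Slc25a37 was not tested.

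Of the 3 outer membrane homologues, 2 fell, beside 11.0% lower among all tested genes. Mtch2 (ENSMUSG00000027282, chromosome 2, 90847155 to 90866810), an insertase for outer membrane proteins that also binds the apoptosis regulator BID, had 9.40, 10.3 and 11.6 FPKM in HepKO livers, against 14.7, 15.3 and 14.9 FPKM in Flox livers. It fell 1.44-fold (log2 fold change -0.49, SE 0.11, adjusted p = 0.022), and lost the call without HepKO replicate 1 (adjusted p = 0.053) or 2 (0.079) or Flox replicate 2 (0.076) or 3 (0.068). Slc25a46 (ENSMUSG00000024259, chromosome 18, 31556111 to 31609911), which acts in mitochondrial shape and fission, had 4.67, 5.37 and 5.44 FPKM in HepKO livers, against 7.90, 7.02 and 7.52 FPKM in Flox livers. It fell 1.45-fold (log2 fold change -0.46, SE 0.10, adjusted p = 0.024). Its call held without HepKO replicate 3 and was lost without HepKO replicate 1 (adjusted p = 0.061) or 2 (0.068) or Flox replicate 1 (0.057), 2 (0.057) or 3 (0.075). Mtch1 had 3.98, 3.97 and 4.77 FPKM in HepKO livers, against 5.15, 6.49 and 5.10 FPKM in Flox livers. Its groups did not overlap either, but it did not pass (log2 fold change -0.33, adjusted p = 0.12). The ratio of Mtch2 to Mtch1 was 2.36, 2.58 and 2.43 in HepKO livers, against 2.86, 2.36 and 2.92 in Flox livers, and overlapped.

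The remaining carriers gave no call. Slc25a48 had 1.88 to 2.37 FPKM in HepKO and 2.18 to 2.45 FPKM in Flox livers, and Slc25a45 3.84 to 5.89 FPKM in HepKO and 3.79 to 5.36 FPKM in Flox livers (adjusted p of 0.83 and 0.80). Slc25a34 had 0.390 to 0.928 FPKM in HepKO livers, against 1.79 FPKM in Flox replicate 1 and 0.385 and 0.563 FPKM in the other Flox livers (adjusted p = 0.66). Slc25a35 and Slc25a53 stayed below the filter, with highest values of 0.520 and 0.214 FPKM. Slc25a43 was listed at 0 in 5 libraries and at 0.062 FPKM in HepKO replicate 3.

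**Figure D4:**
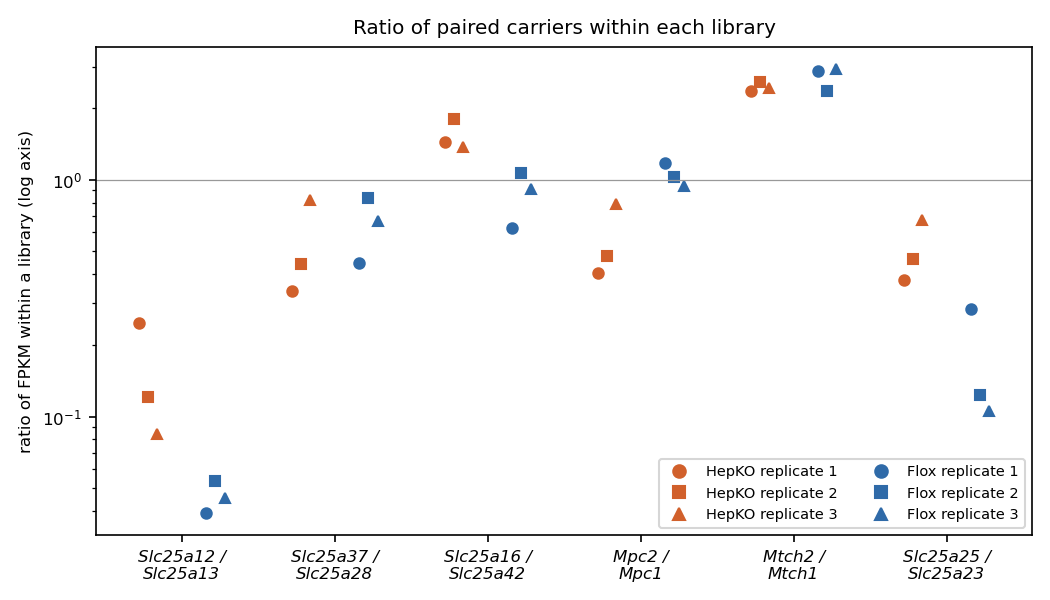
Ratio of FPKM between paired carriers within each library, on a log axis, with HepKO points left of Flox points and 1 symbol per replicate. The groups do not overlap for Slc25a12 over Slc25a13, Slc25a16 over Slc25a42, Mpc2 over Mpc1 and Slc25a25 over Slc25a23, and overlap for Slc25a37 over Slc25a28 and Mtch2 over Mtch1.

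In all, 11 such ratios between carriers were computed, 2 of them, with Slc25a23, chosen after their values were seen. Slc25a25 to Slc25a23 was 0.377, 0.463 and 0.672 in HepKO livers, against 0.285, 0.123 and 0.105 in Flox livers. Slc25a23 to Slc25a24 was 21.3, 11.4 and 19.3 in HepKO livers, against 103, 146 and 75.5 in Flox livers. The 5 ratios whose groups did not overlap each had p = 0.10 in an exact two-sided permutation test, the smallest that the design allows, and 0.22 after Benjamini-Hochberg adjustment over the 11.

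Promoters are shown for the called carriers with the largest log2 fold changes on the FPKM + 1 scale in each direction, as members of a family that moved in opposite directions. RefSeq promoter sequences on GRCm38.p6 were matched by symbol for 38 of the 48 carriers, among them 10 of the 13 called. The 2 with the largest rises and the 2 with the largest falls on that scale among those 10 are printed; by the ratio of mean FPKM, Slc25a24 rose more than Ucp2. Each is the 250 bases before the RefSeq start site on the strand of the gene, and for Ucp2 the last 21 of them lie inside the gene as the deposited table places it. Capitals mark matches, on either strand, to TGANTCA (AP-1), TGACGTCA (cAMP response element), CACGTG (E-box), ACGTG (hypoxia-inducible factor core, which lies within an E-box), AAGGTCA (a nuclear receptor element), the NRF-1 motif, GGGCGG (GC box) and CCAAT.
Slc25a30, chr14:75787038-75787287, minus strand: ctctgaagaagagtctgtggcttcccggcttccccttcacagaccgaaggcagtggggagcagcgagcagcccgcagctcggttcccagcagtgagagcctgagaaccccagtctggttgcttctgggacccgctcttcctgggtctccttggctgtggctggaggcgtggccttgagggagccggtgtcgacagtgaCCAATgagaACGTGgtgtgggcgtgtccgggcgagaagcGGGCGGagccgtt
Ucp2, chr7:100493108-100493357, plus strand: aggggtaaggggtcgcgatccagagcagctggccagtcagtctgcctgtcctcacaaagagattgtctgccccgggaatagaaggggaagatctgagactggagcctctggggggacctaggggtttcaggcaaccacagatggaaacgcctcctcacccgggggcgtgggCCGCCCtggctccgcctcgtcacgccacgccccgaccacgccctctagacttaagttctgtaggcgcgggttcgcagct
Slc25a13, chr6:6217174-6217423, minus strand: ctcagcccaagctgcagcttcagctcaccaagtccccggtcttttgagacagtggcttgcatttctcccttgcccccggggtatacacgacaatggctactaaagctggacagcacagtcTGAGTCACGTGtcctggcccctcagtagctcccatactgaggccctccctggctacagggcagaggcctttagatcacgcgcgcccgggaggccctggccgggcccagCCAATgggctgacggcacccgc
Slc25a23, chr17:57059864-57060113, minus strand: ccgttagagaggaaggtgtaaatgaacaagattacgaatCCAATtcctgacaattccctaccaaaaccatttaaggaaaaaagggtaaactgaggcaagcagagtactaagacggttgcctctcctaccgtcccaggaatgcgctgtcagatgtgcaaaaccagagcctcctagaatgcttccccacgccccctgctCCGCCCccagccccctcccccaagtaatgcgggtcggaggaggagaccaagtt
Both rising genes held a GC box, and Slc25a30 also held the ACGTG core and CCAAT. Slc25a13 held an AP-1 match that overlaps an E-box, together with CCAAT, and Slc25a23 a GC box and CCAAT. Over the 10 called carriers with a sequence, the GC box was in 8, CCAAT in 5, AP-1 in 2 (Slc25a11 and Slc25a13) and ACGTG in 2. Over all 38 carriers with a sequence, called or not, the GC box was in 28, CCAAT in 17, AP-1 in 2 and ACGTG in 10. Among 27025 promoters of the same length, 1 for each symbol, those motifs were in 32.9%, 34.5%, 6.87% and 16.6%. The E-box, NRF-1 motif and nuclear receptor element were each in 1 of the 10 called carriers, and the cAMP response element in 0. Over the 38 carriers these motifs were in 6, 3, 2 and 1, beside 6.05%, 3.86%, 4.05% and 1.62% of the 27025 promoters. A match describes letters in this window and is not a binding site.

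Genes that work with the carriers were taken from 11 lists of 126 genes, of which 122 were tested, 34 fell, 4 rose and 84 did not pass, in a background of 11.0% lower and 9.33% higher among all tested genes. The 38 calls became 11 without HepKO replicate 2, 14 without Flox replicate 2, and 20 without HepKO replicate 1 or Flox replicate 3. The lists of pyruvate use and of oxidative phosphorylation, with 15.4% and 16.7% lower, lay near the background in their share of calls. Their median log2 fold changes were 0.04 and -0.34, beside -0.06 over all tested genes. An unadjusted limma p below 0.05 was found for 7 of 13 and 11 of 18 of their tested genes. In the urea cycle list, 4 of 10 fell and 1 rose, with a median log2 fold change of -0.54. Cps1, which forms carbamoyl phosphate in the matrix, had 135, 145 and 149 FPKM in HepKO livers, against 406, 331 and 293 FPKM in Flox livers, and fell 2.41-fold (limma adjusted p = 0.0023). Otc, which condenses it with ornithine, fell 2.02-fold to 15.8 FPKM, and Glud1, glutamate dehydrogenase, fell 1.88-fold to 206 FPKM. Glul, glutamine synthetase, rose 2.13-fold to 18.4 FPKM in HepKO livers, against 8.68 FPKM in Flox livers. Arg1, the most abundant gene of the list, averaged 835 ± 96.0 FPKM in HepKO and 698 ± 139 FPKM in Flox livers (SD, n = 3 each; limma adjusted p = 0.29). The 4 called genes named here kept their calls without any 1 library.

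Enzymes of the malate-aspartate and glycerol phosphate shuttles had 2 of 6 lower, Got2 (1.43-fold) and Gpd1 (1.28-fold). Of 13 genes of pyruvate use, 2 fell, the pyruvate dehydrogenase subunits Dlat (1.49-fold) and Pdhb (1.35-fold), while Ldha, the most abundant, averaged 640 ± 56.2 FPKM in HepKO and 520 ± 27.6 FPKM in Flox livers (SD, n = 3 each; limma adjusted p = 0.10). Ldha passed as higher after median-ratio rescaling (adjusted p = 0.025) and with a common sum without mitochondrial and abundant genes (adjusted p = 0.033). The list that runs from citrate formation and export to fatty acid synthesis had 3 of 8 lower, namely Idh1 (2.38-fold), Me1 (1.37-fold) and citrate synthase Cs (1.33-fold). The list of partners of mitochondrial glutathione and thiols, which includes genes of glutathione synthesis, had 2 of 9 lower. These were Gclm (2.51-fold), the modifier subunit of glutathione synthesis, and Txnrd2 (1.47-fold). Gclc, the most abundant, had 200 ± 17.7 FPKM in HepKO and 232 ± 38.5 FPKM in Flox livers and did not pass (SD, n = 3 each, limma adjusted p = 0.38). Idh1 and Gclm kept their calls without any 1 library, Got2 in 4, Dlat, Pdhb and Txnrd2 in 2, and Gpd1, Me1 and Cs in none of the 6 such fits.

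Of 12 iron, heme and iron-sulfur genes, 3 fell and 1 rose. Abcb10, a transporter of the inner membrane, fell 2.17-fold. Isca1, an iron-sulfur assembly gene, rose 1.41-fold to 8.58 FPKM in HepKO livers, against 6.08 FPKM in Flox livers. Alas1, the most abundant, had 57.6 ± 4.24 FPKM in HepKO and 57.8 ± 13.6 FPKM in Flox livers (SD, n = 3 each; limma adjusted p = 0.96). Of 14 nucleotide, folate and cofactor genes, 4 fell and 2 rose, among them Coasy, the last enzyme of coenzyme A synthesis, which fell 1.73-fold, and Pank1, which starts that pathway and fell 1.85-fold. Shmt2, the mitochondrial serine hydroxymethyltransferase, rose 1.65-fold to 51.3 FPKM in HepKO livers. Without 1 library, Coasy was called in all 6 fits, Shmt2 in 4, Abcb10 in 3, and Isca1 and Pank1 in 1. Mat1a, the most abundant of that list, had 362 to 478 FPKM in HepKO livers, against 1021 FPKM in Flox replicate 1 and 434 and 376 FPKM in the other Flox livers, and did not pass (adjusted p = 0.49).

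Of 12 tested genes that import carrier proteins, 3 fell. Timm9, a chaperone of the intermembrane space, fell 2.12-fold, Timm29, of the TIM22 insertion complex, 1.59-fold, and the receptor gene Tomm70a 1.33-fold. Timm8b, the most abundant, averaged 57.0 ± 6.37 FPKM in HepKO and 67.6 ± 2.26 FPKM in Flox livers (SD, n = 3 each; limma adjusted p = 0.17). Of 18 nuclear oxidative phosphorylation and channel genes, 3 fell, Sdha (1.47-fold), Ndufs1 (1.48-fold) and Vdac3 (1.37-fold), with a median log2 fold change of -0.34. Atp5b, the most abundant of them, averaged 177 ± 4.74 FPKM in HepKO and 206 ± 10.1 FPKM in Flox livers (SD, n = 3 each; limma adjusted p = 0.13). Each of these 6 called genes of import and oxidative phosphorylation lost its call in at least 2 of the fits without 1 library. Of 7 tested regulators of mitochondrial biogenesis, 0 passed in limma and 2 had an unadjusted p below 0.05. The most abundant of them, Tfb2m, a mitochondrial transcription factor, averaged 9.03 ± 1.22 FPKM in HepKO and 9.96 ± 1.13 FPKM in Flox livers (SD, n = 3 each; limma adjusted p = 0.53).

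**Figure D5:**
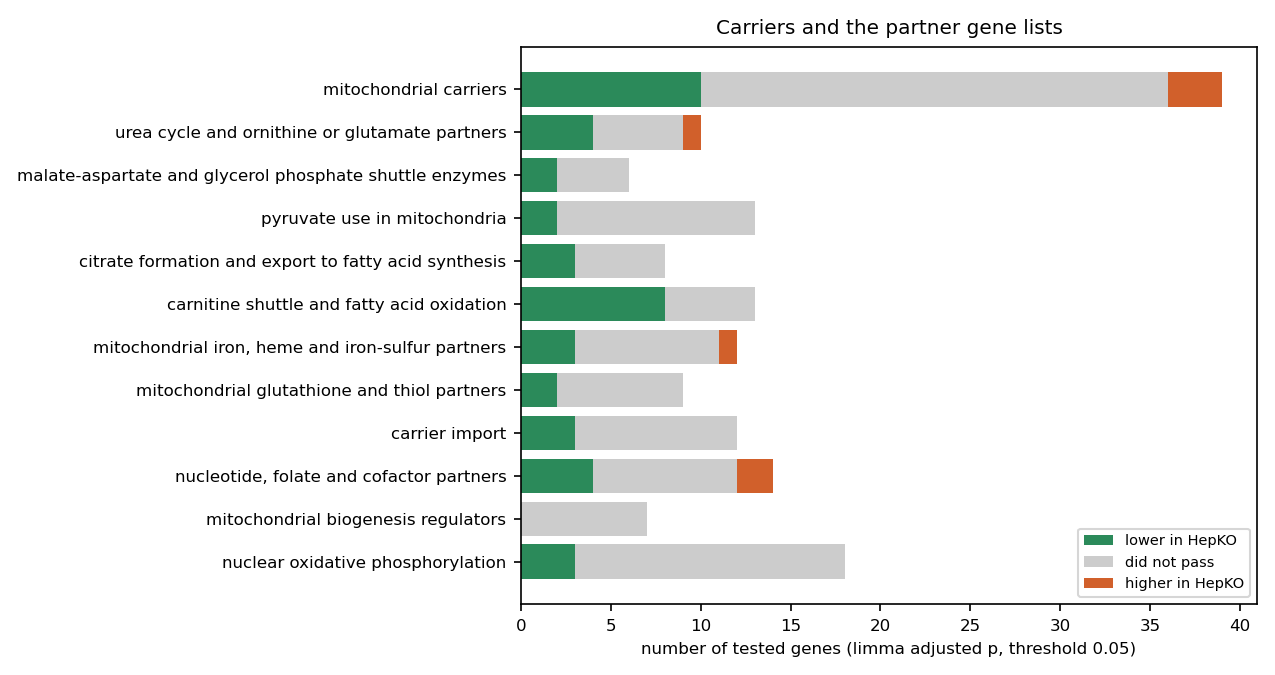
Number of tested genes lower in HepKO livers, not past the threshold, and higher in HepKO livers, for the carriers and for each of the 11 partner lists. The carriers have 10 lower, 26 not past the threshold and 3 higher, and the carnitine shuttle and fatty acid oxidation list has 8 of 13 lower.

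In the authors' deposited table, 43 carriers had a p-value below 1 and 12 of them a q-value below 0.05, 8 lower and 4 higher in HepKO livers. That was a share of 27.9%, beside 18.5% over all genes with such a p-value in the authors' deposited table, where 7.39% were lower and 11.1% higher. Of these 12, 9 were also called by limma. The authors' deposited table alone called Slc25a42 (q = 0.010), Slc25a15 (q = 0.027) and Slc25a51 (q = 0.027). Limma alone called 4, among them Mtch2, Slc25a46 and Slc25a11, whose q-values in the authors' deposited table were 0.076, 0.108 and 0.247.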

How the data were processed

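Poly(A) RNA of whole livers was sequenced from both fragment ends, per the labels' protocols. The deposited table gives the authors' FPKM per gene and library, a unit stated in the file headers, with a p-value and a q-value from the authors. Tools in the submitters' processing notes are HISAT2 2.0.4, cutadapt 1.9, StringTie 1.3.4d, edgeR and DESeq2, with no roles. The build was not stated in labels or headers; 25619 of the 28476 identifiers, and 40 of the 48 carriers, have identical coordinates in GENCODE M21, so GRCm38 is used.

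Because FPKM are no counts, count models were left aside. Depth is unknown, since low values showed no common step between libraries (modal bins of 3.14% to 4.56%). The 12712 genes averaging 0.5 FPKM or more entered limma 3.58.1 (R 4.3.3) as log2(FPKM + 1), with genotype as sole term, a variance trend and two-sided tests, adjusted by Benjamini-Hochberg over all tested genes at 0.05. This scale understates changes of low genes. Folds are ratios of mean FPKM. Nedd4 and the ratios used exact permutation (scipy 1.17.1). Python 3.11.15, pandas 2.3.3 and matplotlib 3.10.9 made the tables and plots.

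The carriers, partner lists, markers and naming rule were chosen with earlier results of these data known. The rule names every called carrier, the 10 most abundant, known pairs, and from each list up to 4 called genes and the most abundant. Some genes that the rule or the marker lists name are counted but not reported here by name. Ratios with Slc25a23, motifs and the promoters shown were chosen after values were seen. Pseudocounts, filters, scalings, limma settings, a block on replicate number and the omission of single libraries were varied.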

Additional observations from a re-analysis of the deposited data

How the results depend on the processing

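The 13 carrier calls were unchanged with a pseudocount of 0.1 or 0.5, robust empirical Bayes, no variance trend or either rescaling to a common sum, and none of the 13 changed direction under any alternative run. Without a variance trend Slc25a21 was called as well, and Ldha, a partner gene, was called under median-ratio rescaling and the trimmed common sum. Without a filter 9 of them were called, and 12 after median-ratio rescaling, which lost Slc25a11. A floor of 1 FPKM left 12 of them to test, without Slc25a24, and all 12 passed. The partner lists had 38 calls, and 24 without a filter. With 1 library left out, calls numbered 1306 to 2282 of 2583 over all genes, 1 to 3 of the 3 higher carriers, 4 to 10 lower carriers against 10, and 11 to 34 in the partner lists; Nedd4 kept its call at -1.07 to -0.99. Carriers called in all 6 such fits numbered 5 (Slc25a23, Slc25a44, Slc25a10, Mpc2 and Ucp2).

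Same-numbered libraries did not deviate together (Pearson r over genes 0.0029, 0.0021 and -0.025), and differently numbered pairs gave -0.046 to 0.050. The labels do not say whether libraries of the same number share more than that number, and these values cannot settle it. With a replicate block as a second term, 1551 genes, 15 partner genes and 4 lower carriers (Slc25a23, Slc25a44, Slc25a10 and Mpc2) passed, and Slc25a30 and Ucp2 passed as higher.

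Differences near 0 that did not pass changed sign. After median-ratio rescaling the log2 fold change was 0.108 for Mpc1, 0.0476 for Slc25a16, 0.0868 for Slc25a37 and 0.0392 for Slc25a48. With a common sum without mitochondrial and abundant genes it was 0.0563, 0.0419 and 0.00162 for Mpc1, Slc25a37 and Slc25a48, and with a common sum of all genes -0.0426 for Alas1. With 1 library left out the range was -0.113 to 0.122 for Mpc1, -0.161 to 0.000501 for Slc25a16, -0.258 to 0.208 for Slc25a37, -0.0573 to 0.198 for Slc25a45, -0.0801 to 0.0329 for Slc25a48, -0.0752 to 0.197 for Slc25a29, -0.391 to 0.115 for Slc25a34, -0.0820 to 0.199 for Alas1 and -0.664 to 0.0561 for Mat1a. The cause was not tested. Depth is unknown, so no limit of detection is given for genes at 0.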
